A study of Arabidopsis thaliana with 3 samples.

Results

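The genes described here are those of DNA repair, DNA replication and chromatin in seedlings of *Arabidopsis thaliana* that lack a functional *AtDSS1(I)* gene and were exposed to hydrogen peroxide. They were chosen by words in the gene descriptions of the deposited table (such as DNA repair, mismatch, endonuclease, replication, chromatin and chromosome) among genes whose family column was empty, which gave 15 of the 2762 genes of the table. The tested line was *dss1(I)*, a homozygous CRISPR/Cas9 mutant with the *dss1(I)del25* indel that its label calls a knockdown, and the control was WT Columbia-0, so that the mutant is represented by 1 line. Seedlings of both genotypes, aged 14 days, stayed for 3 days on agar with 10 mM hydrogen peroxide, and untreated seedlings were not part of the comparison. Poly-A RNA combined over independent experiments gave 1 library per genotype, and a library of *dss1(V)* was left out of this comparison. A table restricted to genes that the study had already called changed in *dss1(I)* against WT was the only source, so that every gene had to differ between the libraries before it could be described.

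Oxidized bases, single-strand gaps and double-strand breaks arise in DNA when reactive oxygen species accumulate, and separate pathways remove them. Mismatch repair proteins scan newly made DNA, the RAD50 complex holds broken ends, and structure-specific endonucleases cut branched recombination intermediates. Origin recognition proteins load the replicative helicase, and chromatin complexes that acetylate or remodel histones open the template for these steps. DSS1 is the small partner of BRCA2 in homologous recombination.

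The library totals implied by the counts, FPKM and gene lengths were 11033843 in *dss1(I)* and 9394592 in WT. Of these totals 9.49% in *dss1(I)* and 10.7% in WT fell in the table's genes. *AtDSS1(I)* itself had 233 reads in the library labelled *dss1(I)* and 807 in WT, giving a log2 ratio of -2.00 (exact 95% interval from -2.23 to -1.80). Its paralog *AtDSS1(V)* had 21 reads in *dss1(I)*, against 73 in WT, giving a log2 ratio of -1.96 (exact 95% interval from -2.79 to -1.30). The 2 *AtDSS1* genes are 984 and 937 bp long. Of the table's other genes from 66 to 1084 bp, 9.84% were at least 2-fold higher in *dss1(I)*. All ratios below are log2 ratios of the scaled counts, *dss1(I)* over WT, with a pseudocount of 1, and their exact Clopper-Pearson 95% intervals cover counting error only. With 1 library per genotype no ratio has a replicate check, and no test between genotypes was possible. In whole seedlings, a change in the number of cells of a type and a change in RNA per cell cannot be told apart.

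The words did not pick DNA genes alone. Of the 15 genes, 10 encode proteins of repair, replication or chromatin, and 5 matched a word for another reason, a distinction drawn from the annotation after the values were known. AT5G03210 and AT5G03230 are described only by the title of a sequenced clone of chromosome 5, *NLM9* (RefSeq symbol *BRX*) by a domain named after chromosome condensation, AT3G02370 as a tRNA-splicing endonuclease subunit, and AT2G43900 (RefSeq symbol *5PTase12*) by a family that endonucleases share with inositol phosphatases. The family column held protein domain names such as kinase and cytochrome P450 domains, not only transcription factor families. For this reason 40 further genes with matching descriptions carried a domain name and fell outside the 15, among them *RECQ4A*, *RECQ4B* and *RECG*. Of the 8 recombination genes that the study followed up by real-time PCR, *EME1B* is the only one among the 15. The others were in the table too, at least 2-fold higher in *dss1(I)*, as were 48.1% of all genes past a scaled count of 10. Their log2 ratios ran from 1.02 for *RECQ4A* to 1.72 for *RPA70C*, at lengths from 3133 to 4735 bp. Of the other genes from 2910 to 16614 bp, 96.6% were higher. *BRCA1*, with 78 reads in *dss1(I)* against 24 in WT (log2 ratio of 1.45), matched none of the words and lies outside the 40 as well.

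All 10 DNA and chromatin genes had more reads in *dss1(I)* than in WT, and 9 of them were at least 2-fold higher. Over all 15 genes, all of which reached a scaled count of 10 in 1 library or both, 11 were at least 2-fold higher in *dss1(I)*, 3 were at least 2-fold lower and 1 lay between. Among all 2620 genes of the table past the same minimum, 48.1% were at least 2-fold higher and 51.0% at least 2-fold lower. The median log2 ratio was 1.15 over the 15 genes, 1.30 over the 10 DNA and chromatin genes and -1.02 over all genes of the table past the minimum. The 3 genes that were lower, AT5G03210, AT5G03230 and *NLM9*, all belong to the 5 matched by word only.

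**Figure D1:**
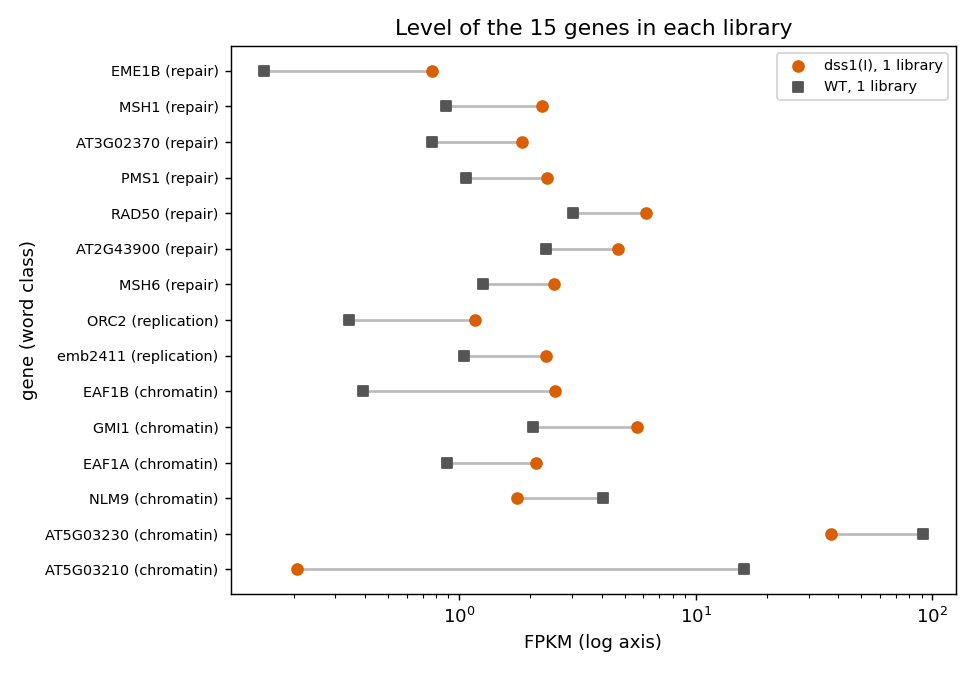
FPKM (reads scaled to gene length and library total, log axis) of each of the 15 genes in the *dss1(I)* library (circles) and the WT library (squares), ordered by word class and ratio, with grey lines joining the libraries of a gene. The circle lies right of the square for 12 genes and left of it for *NLM9*, AT5G03230 and AT5G03210.

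The repair class held 7 genes, of which 6 were at least 2-fold higher in *dss1(I)* and 0 lower, with a median log2 ratio of 1.13. RAD50 is the ATPase of the complex with MRE11 and NBS1 that tethers broken DNA ends. *RAD50* (AT2G31970, chr2:13600431-13609104, TAIR10, plus strand) had 303 reads in *dss1(I)*, against 127 in WT, or 6.15 FPKM in *dss1(I)* and 3.03 FPKM in WT. It was the most abundant of the 10 DNA and chromatin genes in both libraries, and its log2 ratio of 1.03 (interval from 0.73 to 1.35) was among the smallest.

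EME1B is a partner of the nuclease MUS81, which cleaves stalled forks and recombination intermediates. *EME1B* (AT2G22140, chr2:9414557-9418711, minus strand) had 18 reads in *dss1(I)*, against 3 in WT, the fewest reads of the 10 genes in either library. Its log2 ratio was 2.06, and so few reads left an interval from 0.59 to 4.77. By level it was also the lowest of the 10, with 0.77 FPKM in *dss1(I)* and 0.15 FPKM in WT.

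Of the mismatch repair genes, MSH6 is a MutS protein that binds mispaired bases, PMS1 is a MutL protein that acts after a mismatch is bound, and MSH1 is a MutS protein that works in mitochondria and plastids, where it limits recombination between short repeats. *MSH1* (AT3G24320, chr3:8822924-8829728) had 105 reads in *dss1(I)*, against 35 in WT, giving a log2 ratio of 1.34 (interval from 0.80 to 1.96). *PMS1* (AT4G02460, chr4:1076090-1080727) had 85 reads in *dss1(I)*, against 33 in WT, giving a log2 ratio of 1.13 (interval from 0.55 to 1.77). For *MSH6* (AT4G02070, chr4:905865-913290) the reads were 126 in *dss1(I)* and 54 in WT, and its log2 ratio of 0.99 (interval from 0.53 to 1.49) was the value that lay just under the 2-fold line. The intervals of the 3 genes overlapped, so counting error alone leaves their order undecided. Their levels were alike as well, between 2.25 and 2.51 FPKM in *dss1(I)* and between 0.88 and 1.26 FPKM in WT.

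The other 2 genes of this word class are not repair genes. AT3G02370, the tRNA-splicing endonuclease subunit, had 34 reads in *dss1(I)* against 12 in WT (log2 ratio of 1.22, interval from 0.30 to 2.37). AT2G43900, an inositol-polyphosphate phosphatase, had 235 reads in *dss1(I)* against 99 in WT (log2 ratio of 1.02, interval from 0.68 to 1.38). Both overlap a protein-coding gene on the other strand, AT3G02370 over 771 bases and AT2G43900 over 591 bases, and whether the counting used the strand is not given in the sources used here. Reads of the overlapping genes could therefore not be separated, and the values of both are uncertain.

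The replication class held 2 genes, and both were at least 2-fold higher in *dss1(I)*. ORC2 is a subunit of the origin recognition complex. *ORC2* (AT2G37560, chr2:15758601-15761262, plus strand) had 20 reads in *dss1(I)*, against 5 in WT, or 1.17 FPKM in *dss1(I)* and 0.34 FPKM in WT. The log2 ratio was thus 1.61 (interval from 0.33 to 3.55). The gene *emb2411* (AT1G08840, chr1:2829105-2838855, minus strand), described as a replication helicase and related to the DNA2 nuclease-helicase that trims Okazaki fragments in yeast, had 120 reads in *dss1(I)*, against 46 in WT. The resulting log2 ratio was 1.15 (interval from 0.66 to 1.69). The ends of *emb2411* overlap 2 genes on the other strand, and its reads there are likewise uncertain.

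The chromatin class split evenly by direction, with 3 genes at least 2-fold higher and 3 at least 2-fold lower in *dss1(I)*, and a median log2 ratio of 0.04. The split followed the kind of match. The higher genes were the chromatin genes *EAF1B*, *GMI1* and *EAF1A*, and the lower ones were matched by a clone title or a domain name.

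GMI1 carries the hinge domain of chromosome-structure (SMC) proteins and takes its name from induction by gamma irradiation and mitomycin C. *GMI1* (AT5G24280, chr5:8251220-8262603, minus strand) had 319 reads in *dss1(I)*, against 99 in WT, the most reads among the 10 DNA and chromatin genes in *dss1(I)*. By level it had 5.62 FPKM in *dss1(I)* and 2.05 FPKM in WT. Its log2 ratio of 1.46 had an interval from 1.14 to 1.81, which lay wholly above 2-fold. This was so for 2 of the 15 genes, *GMI1* and *EAF1B*, beside 410 of all 2762 genes of the table.

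*EAF1A* and *EAF1B* encode the platform subunit around which the NuA4 histone acetyltransferase complex is built. They lie side by side on the minus strand, *EAF1B* (AT3G24870) at chr3:9074665-9085419 and *EAF1A* (AT3G24880) at chr3:9085720-9096689, with 300 bases between them. *EAF1B* had 191 reads in *dss1(I)*, against 25 in WT, which is 2.54 FPKM in *dss1(I)* and 0.39 FPKM in WT. Its log2 ratio of 2.67 (interval from 2.11 to 3.38) was the highest of the 15. *EAF1A* had 165 reads in *dss1(I)*, against 59 in WT, or 2.12 FPKM in *dss1(I)* and 0.89 FPKM in WT, which gave a log2 ratio of 1.25 (interval from 0.83 to 1.72). The 2 intervals did not overlap. The levels of the pair were close in *dss1(I)*, and in WT *EAF1A* was the more abundant copy.

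How far reads can tell the copies apart bears on that difference. The longest annotated transcripts, 6918 bases for *EAF1A* and 6736 for *EAF1B*, were identical at 99.4% of 6736 aligned bases, with 40 differences and a longest identical stretch of 2243 bases. Of all windows of 150 bases, the length of 1 sequenced read, 58.4% in *EAF1A* and 59.6% in *EAF1B* also occurred in the transcript of another gene, for both chiefly the other copy. Sequencing was paired-end, and these shares take each read alone, although either read of a pair can hold a difference. How reads that fit both copies were counted is not given in the sources used here, so the separate values are uncertain. Summed over the pair, there were 356 reads in *dss1(I)*, against 84 in WT, giving a log2 ratio of 1.85 (interval from 1.52 to 2.23), which does not depend on how reads were split between the copies but could still leave out reads that fit both. The stretch of 100 aligned bases that holds the most differences, within a coding exon, is shown for both copies, from the TAIR10.1 genome in RefSeq, 5′ to 3′ on the minus strand, at chr3:9088344-9088443 for *EAF1A* and chr3:9077116-9077215 for *EAF1B*. Capitals mark the 5 positions at which the copies differ, and they show on how few bases the assignment of a read rests.
EAF1A: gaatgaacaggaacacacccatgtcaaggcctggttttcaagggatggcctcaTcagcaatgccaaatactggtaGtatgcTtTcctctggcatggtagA
EAF1B: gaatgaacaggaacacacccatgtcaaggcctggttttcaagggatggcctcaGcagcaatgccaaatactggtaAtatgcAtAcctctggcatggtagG

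The 3 genes that were lower in *dss1(I)* have no annotated role in chromatin. AT5G03210, listed in RefSeq as *DIP2*, a DBP-interacting protein, had 2 reads in *dss1(I)*, against 132 in WT. Its log2 ratio of -5.65 (interval from -9.32 to -4.38) was the largest in size of the 15, and its level was 0.21 FPKM in *dss1(I)* and 16.0 FPKM in WT. AT5G03230, 5957 bases away on the same arm, had 462 reads in *dss1(I)*, against 962 in WT. It was the most abundant of the 15 by level, with 37.2 FPKM in *dss1(I)* and 90.9 FPKM in WT, and its log2 ratio was -1.27 (interval from -1.44 to -1.11). *NLM9* (AT1G31880), known as *BRX* for its role in root growth, had 32 reads in *dss1(I)*, against 63 in WT, giving a log2 ratio of -1.17 (interval from -1.86 to -0.56).

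**Figure D2:**
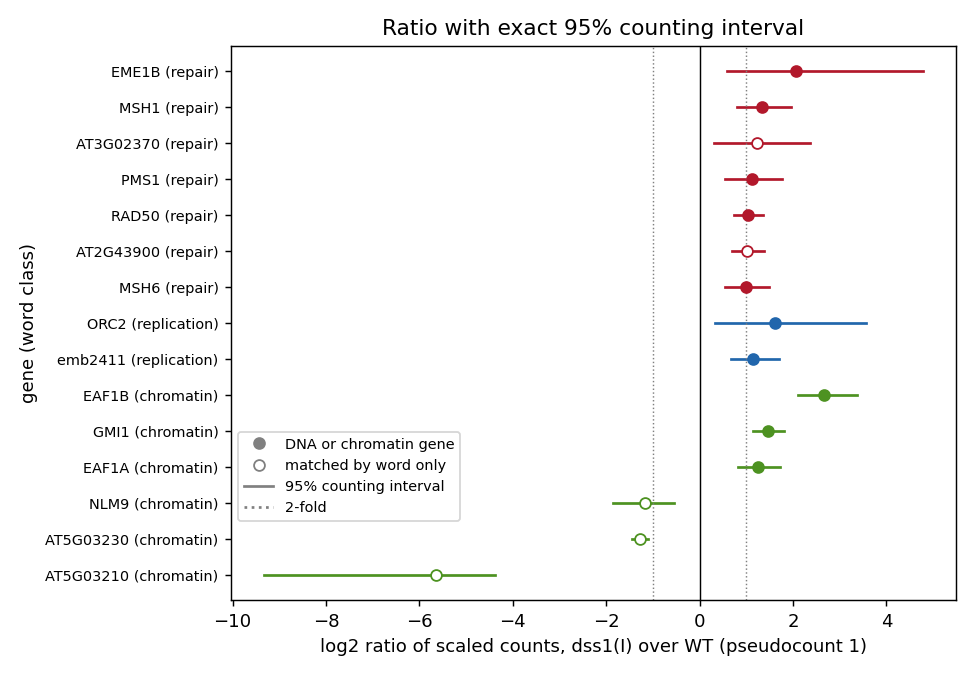
Log2 ratio of scaled counts, *dss1(I)* over WT, for the 15 genes by word class (red repair, blue replication, green chromatin), with lines for the exact 95% counting interval, filled points for DNA and chromatin genes and open points for genes matched by word only. All 10 filled points lie at 0.99 or above, and no interval of the 15 genes crosses 0. The same holds for all 2762 genes of the table, with 1341 intervals above 0 and 1421 below.

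Gene length separates the directions in this table, so the 15 genes were set beside other genes of similar length. The median length used for FPKM was 4232 bp for the 15 genes, 4508 bp for the 10 DNA and chromatin genes and 1703 bp for all genes of the table. The table was divided into 4 groups of gene length, and 9 of the 15 genes fell in the longest, from 2910 to 16614 bp. There, 8 of the 9 were at least 2-fold higher in *dss1(I)* and 0 lower, beside 96.6% higher among the other genes of that length. In the group from 1705 to 2909 bp the single gene, *EME1B*, was higher, beside 61.6% of the others. In the group from 1085 to 1703 bp *ORC2* and AT3G02370 were higher, beside 20.2% of the others, while *NLM9* and AT5G03230 were lower. In the shortest group, from 66 to 1084 bp, AT5G03210 was lower, and 9.84% of the others were higher. If each of the 15 genes had the share of higher genes found at its length, 10.2 would be higher, against 11 observed. For the 10 DNA and chromatin genes the same sum was 8.55, against 9 observed. The count of higher genes therefore lay close to what genes of their length in the table showed, and nothing particular to repair, replication or chromatin can be read from it.

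**Figure D3:**
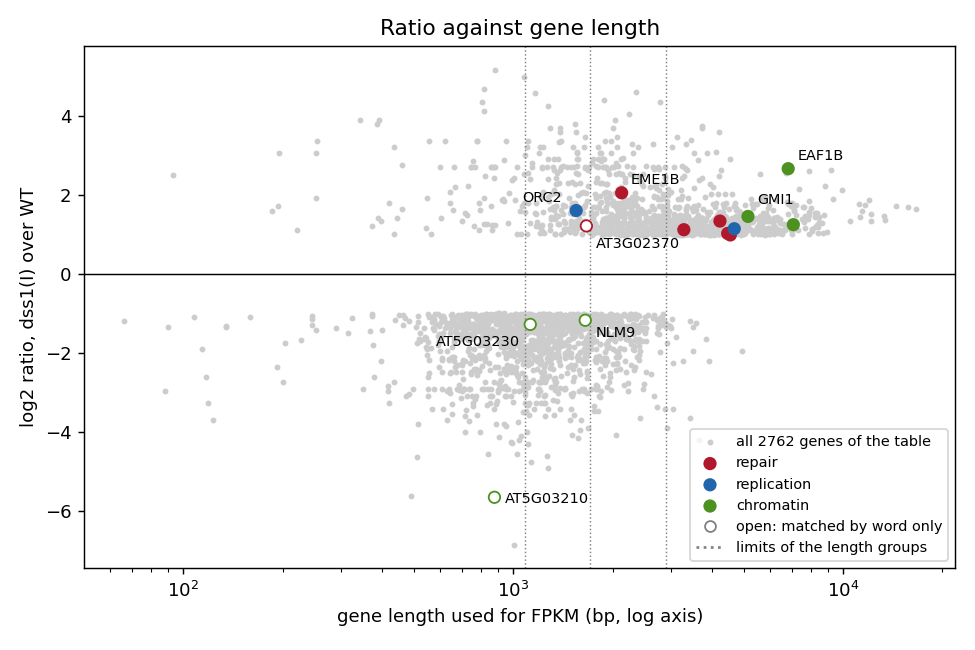
Log2 ratio of scaled counts, *dss1(I)* over WT, against the gene length used for FPKM (log axis) for all 2762 genes of the table (grey) and the 15 genes (colours by word class, open points matched by word only), with dotted lines at the limits of the 4 length groups. Genes above 2910 bp lie almost all above 0, and *ORC2*, AT3G02370 and *EME1B* lie above 0 at lengths where genes of both directions occur.

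Single genes stood differently among neighbours in length. Of the 124 other genes with a length within 20% of that of *EAF1B*, 0 had a log2 ratio above its 2.67, and their median was 1.27. That place rests on the uncertain split of reads between the *EAF1* copies, and the summed ratio of the pair, 1.85, lay near the 90th percentile of these genes, 1.78. For *GMI1*, 45 of 243 genes of similar length had a larger ratio, and for *MSH1* 83 of 346. *ORC2* was higher in *dss1(I)* although 26.4% of the 554 genes of its length were, and 69 of them had a larger ratio than its 1.61. *RAD50* and *MSH6* lay at the low end for their length, since 274 of 314 genes had a larger ratio than *RAD50* and 297 of 302 a larger one than *MSH6*. For AT5G03210, 403 of 404 genes of similar length had a ratio above -5.65.

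Further features that the words did not use were described over the 15 genes by their medians, beside all other genes of the table and not those of similar length. The median number of exons was 12 in the longest transcript, against 3 in the other genes, and the median GC content was 42.0%, against 41.2%. Single genes departed from these medians, since AT5G03210 and AT5G03230 have 1 exon each. At the median, levels were 2.33 FPKM in *dss1(I)* and 1.07 FPKM in WT for the 15 genes, against 4.29 FPKM in *dss1(I)* and 4.49 FPKM in WT over all genes of the table. *MSH6* and *PMS1* lie 162799 bases apart on chromosome 4, and the 2 *EAF1* copies were the only neighbours with no annotated gene between them.

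Promoters were read for elements tied to the cell cycle and to DNA damage, over 250 bases before and 50 after each annotated start. The E2F element, through which E2F factors drive genes of S phase, was searched as TTTCCCGC, TTTCGCGC or TTTGGCGC, the MSA core of genes of G2 and M phase as AACGG, and the palindromic element of the damage regulator SOG1 as CTT and AAG separated by 7 bases, on both strands. An E2F element was found in 1 of the 15 promoters, that of *ORC2*, and in 1.42% of 27443 promoters of protein-coding genes. An MSA core was found in 8 of the 15 (53.3%), of which 5 were among the 10 DNA and chromatin genes, and in 24.7% of all promoters. A SOG1 element was found in 0 of the 15 and in 11.8% of all promoters. These are matches of letters and not sites shown to be bound. The window around the E2F match of *ORC2* (chr2:15758552-15758639, plus strand, 9 bases before the start) and those around the MSA cores of *MSH6* (chr4:905810-905894, plus strand), *PMS1* (chr4:1080786-1080870, minus strand) and *emb2411* (chr1:2838875-2838959, minus strand) are given 5′ to 3′ along the gene, from the TAIR10.1 genome in RefSeq, as examples from genes of repair and replication, with the match in capitals. The MSA cores of *EME1B* (1 match) and *ORC2* (2 matches) are not printed. The capitals of *ORC2* and *emb2411* read the element on the opposite strand.
ORC2: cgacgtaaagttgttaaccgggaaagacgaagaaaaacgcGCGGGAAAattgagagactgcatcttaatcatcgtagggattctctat
MSH6: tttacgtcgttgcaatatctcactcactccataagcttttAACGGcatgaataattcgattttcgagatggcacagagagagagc
PMS1: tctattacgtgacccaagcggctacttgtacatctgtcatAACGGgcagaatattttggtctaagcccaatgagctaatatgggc
emb2411: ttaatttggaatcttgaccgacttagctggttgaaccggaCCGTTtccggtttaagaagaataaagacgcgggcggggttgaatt

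Other genes of the same pathways were examined from a list of 177 genes, 5 of which are among the 15. Of the remaining 172, 36 were in the table, and all 36 were at least 2-fold higher in *dss1(I)*, with a median log2 ratio of 1.29. These 36 were long too, with a median length of 4967 bp, in the range where 96.6% of genes of the table were higher. The 136 others are not in this table of called genes and were not analysed here. None of the 5 further listed genes of mismatch repair was in the table, and none of the 5 listed genes of nucleotide supply.

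Around *RAD50* and *EME1B*, 1 of 10 listed damage signalling genes was in the table. It was the damage kinase gene *ATR*, with 72 reads in *dss1(I)* against 16 in WT (log2 ratio of 1.89). Of 20 further listed recombination genes 3 were in the table. Among them, the telomere helicase gene *RTEL1* had 329 reads in *dss1(I)* against 94 in WT (log2 ratio of 1.58). The list does not hold *BRCA1*, *RECQ4A*, *RECQ4B* or *RECG*, which the study followed up and which were also in the table and higher in *dss1(I)*. Around *ORC2*, 6 of 23 listed replication fork genes were in the table, with *POLE1*, the catalytic subunit of DNA polymerase epsilon, at 251 reads in *dss1(I)* against 45 in WT (log2 ratio of 2.24, the highest of the 36). *ORC1B*, another origin recognition subunit, had 70 reads in *dss1(I)* against 19 in WT (log2 ratio of 1.62). Around the *EAF1* pair, 3 of 10 listed acetylation genes were in the table. Among them, the acetyltransferase gene *HAC1* had 1025 reads in *dss1(I)* against 399 in WT (log2 ratio of 1.14). Of 18 listed remodelling and histone chaperone genes 7 were in the table, with log2 ratios from 1.04 to 1.79.

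**Figure D4:**
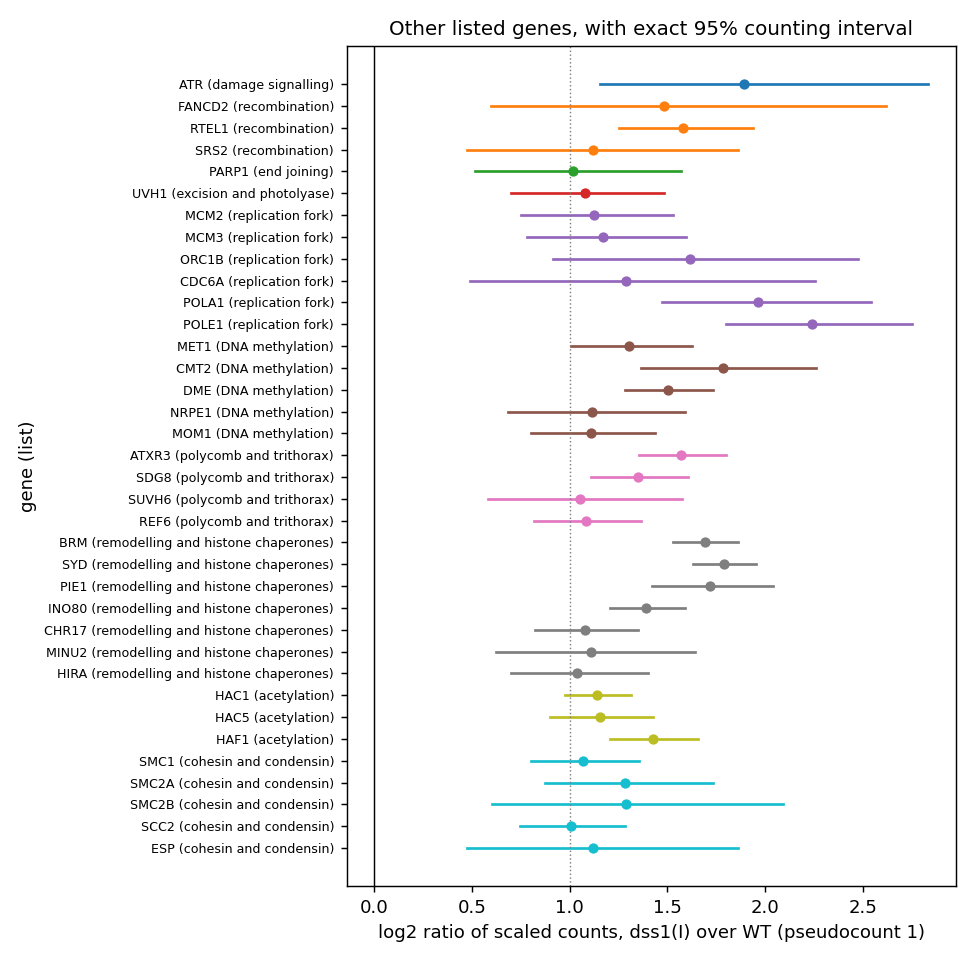
Log2 ratio of scaled counts, *dss1(I)* over WT, for the 36 listed pathway genes in the table that are not among the 15, coloured by list, with lines for the exact 95% counting interval and a dotted line at 2-fold. Ratios run between 1.01 for *SCC2* and 2.24 for *POLE1*, and every interval lies above 0. Of all 2762 genes of the table, 1341 have an interval above 0 and 1421 have one below.

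The 40 genes whose descriptions matched but that carried a domain name are the closest set to the 15. Of the 39 past the minimum, 36 were at least 2-fold higher and 3 lower in *dss1(I)*, with a median log2 ratio of 1.14 and a median length of 4037 bp, against 1.15 and 4232 bp in the 15. The difference between the sets was not tested. Markers of dividing cells (8 genes), meiotic cells (4) and leaf mesophyll (6) had 0 genes in the table, and their levels were not analysed here. Of 6 root markers, 2 were in the table, and both were at least 2-fold higher in *dss1(I)*, beside 48.1% of all genes of the table past the minimum. *PRP3* had 74 reads in *dss1(I)*, against 9 in WT, and *RHD2* had 33 reads in *dss1(I)* against 11 in WT. The other root markers are not in this table of called genes, so these 2 do not show how the root markers stood as a set. The part of root markers in the values of the 15 genes was not tested.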

How the data were processed

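Poly-A RNA of *dss1(I)* and WT seedlings was compared, 1 library each. According to the methods and labels, reads were filtered with fastp, mapped with HISAT2 to TAIR10 and counted per gene with featureCounts. The deposited read counts are raw whole numbers. The authors deposited scaled counts too, a signal obtained with edgeR by adjusting counts to a common library size (close to 0.927 times the count for *dss1(I)* and 1.08 times for WT). The authors also gave FPKM, which divides each count by gene length and library total. The fold changes and p-values that the deposited table also holds were not used. 

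Log2 ratios used a pseudocount of 1, and sets were counted over genes that reached a scaled count of 10 in either library. Library totals were recovered from count, FPKM and length, and served the simulated data and the alternative scaling. The intervals used raw counts and the authors' scaling factors. Since reads carried no molecular identifiers, some may be copies of 1 molecule. A member was put in the first class that its words matched (repair, replication, chromatin). Genes named were the study's recombination genes among the 15, both *AtDSS1* genes, the highest and lowest ratios and levels of each class, and genes in the rarer direction for their length. Which 5 members matched by word only, and the SOG1 element, were chosen after the values were seen. The members and gene lists were chosen with earlier results of these data known. Of 2762 gene identifiers, 2744 matched the TAIR10.1 annotation of RefSeq, all with the same start and end, including the 15. Transcripts were aligned with mafft 7.526. The ratio was tested on simulated data. Alternatives were other pseudocounts, minimums, scalings, thresholds, memberships, length groups and promoter windows. Calculations ran in pandas 2.3.3 and scipy 1.17.1, on Python 3.11.15, and plots in matplotlib 3.10.9.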

Additional observations from a re-analysis of the deposited data

How the results depend on the processing

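No paired analysis was possible because *dss1(I)* and WT were each sequenced as 1 library, and leaving out a replicate could not be tried either. When the libraries were scaled to a median ratio of 1 across the table's genes, log2 ratios shifted upward by 1.02. It left 1 of the 15 genes lower, and gave a median log2 ratio of 2.13 for repair and 1.05 for chromatin, -0.98 for *AtDSS1(I)* and -0.97 for *AtDSS1(V)*. At a 4-fold threshold 2 of the 15 genes were higher and 1 lower, against 0.855 higher at the share of their lengths. The 2 were *EAF1B*, whose value rests on the uncertain split between the copies (summed log2 ratio of the pair 1.85), and *EME1B*, with 18 reads in *dss1(I)* against 3 in WT. Without the 5 genes matched by word only, 0 were lower and the chromatin median was 1.46. With the 40 genes that carry a domain name added, 47 were higher and 6 lower, against 44.8 higher at the share of their lengths, and the chromatin median was 1.14. The last 2 settings were chosen after seeing the data. The other pseudocounts, minimums, the scaling by library totals, the sign alone, the length groups and the promoter window kept every count within 1.5 times. Across the pseudocounts, minimums and library totals, medians ran from 1.03 to 1.145 for repair and from 1.13 to 1.46 for replication. For chromatin they ran from 0.03 to 0.07. This says little about stability, because nearly all genes of the table lay past 2-fold. Depth limits *EME1B*, *ORC2* and AT5G03210, each with 5 or fewer reads in 1 library.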

Other observations

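Among the 40 genes with matching descriptions and a domain name, the 3 that were lower in *dss1(I)* included both genes that encode histone proteins themselves. The histone H2B gene AT2G37470 had 279 reads in *dss1(I)*, against 522 in WT, giving a log2 ratio of -1.12, and *HTR12*, which encodes the centromeric histone H3, had 9 reads in *dss1(I)*, against 27 in WT, giving a log2 ratio of -1.69. AT2G37470 is 1002 bp long, in the length group where 9.84% of the other genes were higher. *HTR12* is 1779 bp long, in the group where 61.6% were higher, so its direction was the rarer one there. With so few reads its interval ran from -3.08 to -0.67. The third was *MCC1*, described as a histone acetyltransferase, with 1 read in *dss1(I)* and 13 in WT. Other genes of enzymes that modify histones were higher in *dss1(I)*, such as the histone demethylase gene *LDL3*, with 327 reads in *dss1(I)* against 136 in WT (log2 ratio of 1.04), and the histone methyltransferase gene *ATXR3*, with 745 reads in *dss1(I)* against 215 in WT (log2 ratio of 1.57). These enzyme genes are 6424 and 7855 bp long, and the part of gene length in the difference was not tested.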
